A study of Mus musculus with 6 samples.

Results

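The interferon-stimulated genes examined here are a list of 47 genes, most of which mammalian cells switch on in response to interferon. The list also holds genes of the pathway itself, such as the receptor genes *Ifnar1* and *Ifnar2* and the transcription factor gene *Irf3*. The 47 genes were taken by symbol from a table of read counts that lists 24421 genes, and all 47 symbols were found. The list was chosen with earlier results of these data known, so its shares beside those of all genes are descriptive. After the filter on low counts, 46 of them were among the 13479 genes tested, and *Mx1* was not. The libraries came from endothelial cells cultured from the stria vascularis, a capillary-rich tissue in the lateral wall of the cochlea, of mice on postnatal days 10 to 12. There were 6 libraries, of which 3 were from *Nhe6*-knockout cultures and 3 from wildtype cultures, none of them treated, and the labels give C57BL/6N as the strain background of both. The authors' methods instead describe a backcross into C57bl6/j, so the sources differ on the substrain. The knockout mice carried a targeted disruption of *Nhe6*, a gene for an endosomal sodium and proton exchanger. Each culture pooled cells of several mice, and the labels do not say that replicates came from separate animals. The p-values thus weigh differences against the spread between these cultures and not between mice.

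Type I interferons are secreted when a cell detects foreign or misplaced nucleic acid. They bind a receptor of the subunits IFNAR1 and IFNAR2, whose kinases JAK1 and TYK2 phosphorylate transcription factors such as STAT2. STAT2 and IRF9 belong to the complex ISGF3, which binds the interferon-stimulated response element (ISRE) in promoters and switches on genes that sense viral RNA, block viral entry and translation, and feed back on the pathway itself.

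Between 25587097 and 29126232 reads per library fell on genes. A normalised count is a count scaled with edgeR's TMM method to the mean library size, and values of a gene are given in the order of replicates 1, 2 and 3, with SDs over n = 3 libraries. Knockout replicates 1 and 2 were more alike than any other pair of libraries. The chi-square of their counts was 4.89 per degree of freedom, above sampling noise, against 89.6 to 397 for the other 14 pairs. Except where their counts were summed, the tests and SEs below count them as separate replicates, and whether they are independent is not known. Wildtype replicate 2 lay apart on the first principal component, at 80.1 against -20.1 to -6.68 for the others. Of 15 endothelial markers, 6 averaged at least 100 normalised counts, *Cldn5* and *Sox17* had no read in any library and *Pecam1* had 1 to 8. All 12 fibroblast markers averaged at least 100 normalised counts. The endothelial name is thus the authors', and the share of each cell type in the cultures was not measured here.

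Interferon-stimulated genes were mostly high in knockout replicates 1 and 2 and near the wildtype level in knockout replicate 3. Relative to the wildtype mean, the median log2 ratio of the 46 genes was 1.18 and 1.12 in knockout replicates 1 and 2, and 0.20 in knockout replicate 3. In the wildtype libraries it was 0.03, -0.33 and 0.31. The median over all genes tested lay between 0.00 and 0.02 in every library. Summed over the 47 genes, normalised counts were 113328, 110275 and 58589 in the knockout libraries and 64505, 49152 and 59442 in the wildtype libraries.

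**Figure D1:**
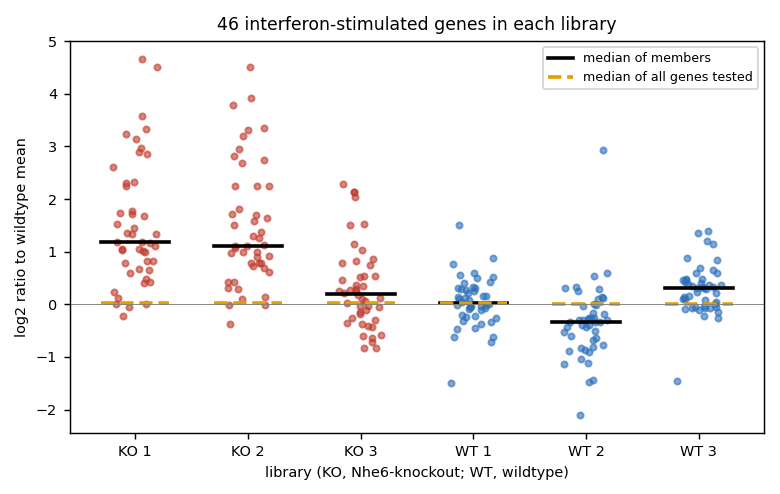
Log2 ratio of each of the 46 tested interferon-stimulated genes to its wildtype mean (vertical axis, log2 units) in each library (horizontal axis; KO, *Nhe6*-knockout, red; WT, wildtype, blue). Points are genes, black lines their median and dashed lines the median of all genes tested; the points of KO 1 and KO 2 lie mostly above 0 with medians of 1.18 and 1.12, and those of KO 3 are centred at 0.20.

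Knockout replicates 1 and 2 both exceeded the other 4 libraries for 36 of the 46 genes, which held for 12% of all genes tested. For 0 genes did both lie below the other 4, against 10.4% of all genes. The highest library was knockout replicate 1 for 25 genes, knockout replicate 2 for 11 and knockout replicate 3 for 1, *Irf5*. Knockout replicate 3 lay above every wildtype library for 16 genes, within their range for 22 and below all of them for 8. Over all genes tested, it lay above for 20.7% and below for 19.4%. The 8 genes below were *Ifnar2*, *Ifih1*, *Ifit3*, *Samd9l*, *Trim30a*, *Gbp2*, *Gbp7* and *Parp14*, and 5 of them were among the genes with knockout replicates 1 and 2 on top. The mean of knockout replicates 1 and 2 was at least 2 times knockout replicate 3 for 27 genes, with a median ratio of 2.2. The share of all genes at that ratio was not computed. Between knockout replicates 1 and 3 the median absolute log2 ratio was 1.22 for the 46 genes and 0.218 for all genes. Between knockout replicates 2 and 3 it was 1.13 and 0.232.

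In the comparison of the genotypes, 40 of the 46 genes had a log2 fold change above 0, as did 48.1% of all genes tested. Their median was 0.86, against -0.02 over all genes. In edgeR's quasi-likelihood test 0 of the 46 passed the threshold of 0.05 on the adjusted p, where 0.0297% of all genes tested were called higher and 0.0371% lower, and the lowest adjusted p was 0.114 for *Usp18*. At an unadjusted p under 0.05, 22 were higher and 0 lower, against 6.14% and 5.71% of all genes. With DESeq2's Wald test, 16 of the 45 genes given an adjusted p were called higher and 0 lower, against 2.85% and 1.83% of all genes. With the counts of knockout replicates 1 and 2 summed as 1 culture, a setting chosen after seeing the data, DESeq2 called 5 of 46 higher (1.49% of all genes). These were *Usp18*, *Ifi44*, *Isg15*, *Ifit1* and *Irf7*. The same sum in edgeR called 0 of the 46, against 0% of all genes higher and 0.00731% lower, and gave a median log2 fold change of 0.67. At an unadjusted p under 0.05 it had 16 of them higher and 0 lower, against 3.68% and 2.51% of all genes. Without wildtype replicate 2, edgeR again called 0 of the genes, against 1.62% of all genes higher and 1.26% lower, with a lowest adjusted p of 0.0695 for *Trim25*. That fit tested all 47 genes, because *Mx1* passed the filter there through the knockout libraries. At an unadjusted p under 0.05 that fit gave 19 of 47 higher and 2 lower, *Ifnar2* and *Irf1*, against 9.99% and 9.49% of all genes.

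In 15 genes every knockout library was above every wildtype library, which was so for 10.3% of all genes tested, and in 0 genes was every knockout library below (9.57% of all genes). With 3 libraries against 3, an exact permutation test of a single gene cannot go below p = 0.1. The 15 were *Ddx58*, *Stat2*, *Irf7*, *Ifit1*, *Oas1a*, *Mx2*, *Rsad2*, *Ifitm3*, *Iigp1*, *Isg15*, *Usp18*, *Ifi44*, *Ifi27*, *Xaf1* and *Rtp4*. Each was among the 22 and the 16, and the remaining DESeq2 call was *Oasl2*. *Oas1a* and *Rsad2*, which are in all 3 counts, had fewer than 10 reads in each wildtype library and passed the filter on low counts through the knockout libraries, so a difference was built into their being tested. Both were also among the genes higher at an unadjusted p under 0.05 in edgeR with the sum and without wildtype replicate 2.

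**Figure D2:**
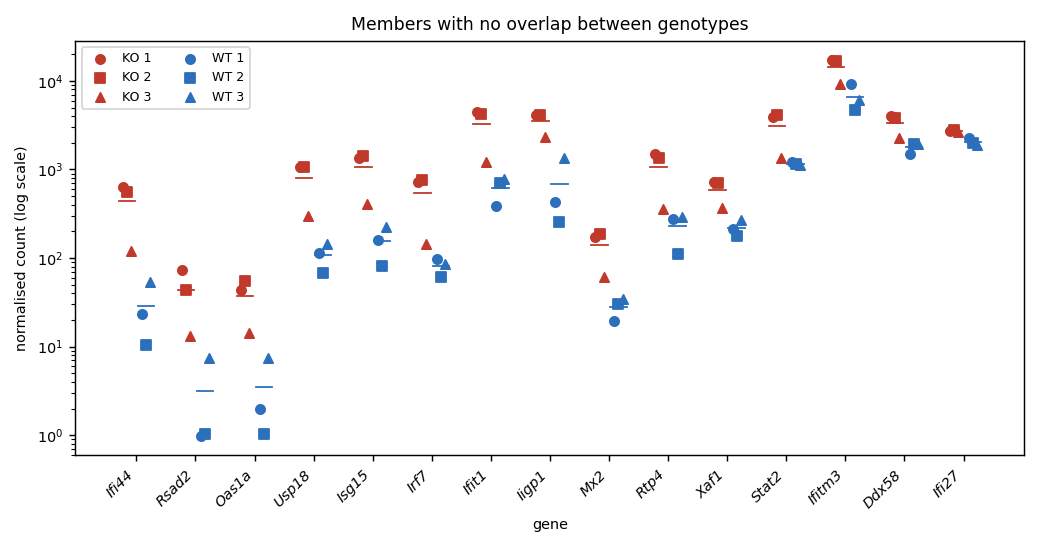
Normalised counts (vertical axis, log scale) of the 15 interferon-stimulated genes (horizontal axis) in which the genotypes did not overlap, with red for *Nhe6*-knockout (KO), blue for wildtype (WT), a marker shape for each replicate and lines for the mean of 3 libraries. In each gene but *Ifi27* the triangle of KO 3 lies well below KO 1 and KO 2; *Ifi27* has 2729, 2759 and 2654 normalised counts in the knockout libraries.

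Promoters are shown for the genes in which the ISRE can be seen beside the counts. A RefSeq promoter of 300 bases (250 before the start site and 50 after it, GRCm38.p6) was found for 36 of the 47 genes. The ISRE core, which is GAAA followed by any 2 bases and GAAA again, was searched on both strands and was in 18 of them (50%), against 3.99% of all genes with a promoter. The longer form, the core followed by CT, was in 11 of 36 (30.6%), against 0.303%. The gamma-activated site TTCNNNGAA, an element of the interferon gamma response, was in 11 of 36 (30.6%), against 9.55%, and in 2 genes such a match shared a base with a core ISRE. A match describes the letters and is not a measured binding site. The 4 genes with the smallest p among those with a core ISRE in the 130 bases before the start site are printed 5′ to 3′ in the direction of the gene, with *Ifit3*, a neighbour of *Ifit1*, added for comparison. Of these, *Oas1a* and *Rsad2* passed the filter on low counts through the knockout libraries, so a difference was built into their being tested. Capitals mark every core ISRE match, read on either strand.
Isg15 (chr4:156200819-156200948, minus strand): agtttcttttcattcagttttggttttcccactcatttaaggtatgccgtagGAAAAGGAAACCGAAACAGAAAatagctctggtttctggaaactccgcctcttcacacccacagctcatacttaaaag
Ifit1 (chr19:34640759-34640888, plus strand): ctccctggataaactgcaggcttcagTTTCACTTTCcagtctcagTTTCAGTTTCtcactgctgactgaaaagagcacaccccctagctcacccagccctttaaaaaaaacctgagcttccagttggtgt
Oas1a (chr5:120907526-120907655, minus strand): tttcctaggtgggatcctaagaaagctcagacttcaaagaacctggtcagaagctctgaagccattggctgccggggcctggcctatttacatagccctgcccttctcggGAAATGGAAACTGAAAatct
Rsad2 (chr12:26456453-26456582, minus strand): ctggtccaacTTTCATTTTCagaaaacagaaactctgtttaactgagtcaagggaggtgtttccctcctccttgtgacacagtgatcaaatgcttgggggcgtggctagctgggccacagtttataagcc
Ifit3 (chr19:34583399-34583528, plus strand): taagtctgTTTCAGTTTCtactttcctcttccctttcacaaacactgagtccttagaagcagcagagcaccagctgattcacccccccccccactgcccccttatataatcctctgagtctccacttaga

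*Isg15* held 3 overlapping matches in 1 run of 22 bases, *Ifit1* 2 separate matches, *Oas1a* 2 overlapping matches close to the start site, and *Rsad2* and *Ifit3* 1 each. The 18 tested genes with a core ISRE in the full promoter, *Oas1a* and *Rsad2* among them, had a median log2 fold change of 0.89, and the 18 without it 0.52. The 10 tested genes with no promoter entry had a median of 1.41. Knockout replicates 1 and 2 were on top in 16 of the 18 genes with the core, 10 of the 18 without it and 10 of the 10 with no entry, so high values in those libraries occurred with and without it.

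The ISG15 system had the highest median log2 fold change of the role groups, 2.84 for its 2 genes. *Isg15* (chromosome 4, 156199424 to 156200818 on GRCm38, as are all gene positions here), which encodes a ubiquitin-like protein joined to other proteins in the interferon response, had 1357, 1432 and 404 normalised counts in the knockout libraries. Its wildtype counts were 159, 80.5 and 225, so even knockout replicate 3 was above every wildtype library. The means were 1064 ± 573 and 155 ± 72.2, and the log2 fold change was 2.78 (SE 0.59, edgeR adjusted p = 0.134, DESeq2 adjusted p = 5.92e-05). *Usp18* (chromosome 6, 121245906 to 121270917) encodes the protease that removes ISG15 and dampens signalling at IFNAR2. It had 1062, 1073 and 300.0 normalised counts in the knockout libraries against 113, 68.1 and 145 in wildtype. Knockout replicates 1 and 2 were about alike, and replicate 3 lay between them and the wildtype libraries. The log2 fold change was 2.90 (SE 0.56), with an adjusted p of 0.114 in edgeR and 9.25e-06 in DESeq2, which became 0.00558 with knockout replicates 1 and 2 summed.

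The receptor genes did not follow this pattern. *Ifnar1*, the subunit that recruits TYK2, had 4026, 3952 and 4189 normalised counts in the knockout libraries and 4257, 3332 and 4479 in wildtype, with full overlap and a log2 fold change of 0.01. *Ifnar2*, the subunit that binds interferon with high affinity, had 1736, 1557 and 1523 against 2417, 1659 and 2082. Knockout replicates 2 and 3 were below every wildtype library and replicate 1 was within their range, with a log2 fold change of -0.35.

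All 5 nucleic acid sensors had a log2 fold change above 0, with a median of 0.91. *Ddx58* (chromosome 4, 40203773 to 40239828), which encodes the viral RNA sensor RIG-I, had 4045, 3831 and 2278 normalised counts in the knockout libraries and 1513, 1921 and 1958 in wildtype. There was no overlap, and the log2 fold change was 0.91 (SE 0.24, edgeR adjusted p = 0.218, DESeq2 adjusted p = 0.0323). *Dhx58*, for the related protein LGP2, had 641, 615 and 191 against 274, 131 and 182, with knockout replicate 3 inside the wildtype range (1.30, SE 0.51). *Zbp1*, which encodes a sensor of Z-form nucleic acid, had the highest ratio of knockout replicates 1 and 2 over replicate 3 of the genes tested, 5.40. Its counts were 713, 677 and 129 against 262, 50.5 and 214. *Ifih1*, for MDA5, had 1584, 1506 and 589 in the knockout libraries, and the third of these was below the wildtype values of 706, 622 and 1001. *Tlr3*, for the endosomal receptor of double-stranded RNA, had a log2 fold change of 0.42.

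Among the 6 transcription factors, knockout replicates 1 and 2 exceeded every other library for *Irf7* and the ISGF3 genes *Stat2* and *Irf9*. For *Irf1*, *Irf3* and *Irf5* they did not. *Irf7* (chromosome 7, 141262706 to 141266481), which drives the interferon alpha genes, had 716, 752 and 143 normalised counts in the knockout libraries and 98.7, 60.9 and 86.6 in wildtype. The groups did not overlap, and the log2 fold change was 2.71 (SE 0.63, edgeR adjusted p = 0.164, DESeq2 adjusted p = 4.62e-04). *Stat2* (chromosome 10, 128270559 to 128292849) had 3878, 4072 and 1348 against 1201, 1167 and 1130. Its wildtype libraries were within a narrow range (1166 ± 35.5), and knockout replicate 3 was just above them, at a log2 fold change of 1.41 (SE 0.40). *Irf9*, the DNA-binding subunit of ISGF3, had 2820, 2755 and 1329 against 1384, 927 and 1073, with knockout replicate 3 inside the wildtype range (1.03, SE 0.32). *Irf1* had 1286, 1407 and 1255 against 1577, 747 and 1760, a log2 fold change of -0.05 with the knockout values inside the wildtype range. *Irf3*, which is activated by phosphorylation, had a log2 fold change of 0.14. *Irf5*, the factor with the fewest counts, had 208, 239 and 252 against 166, 62.9 and 248, a log2 fold change of 0.55.

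**Figure D3:**
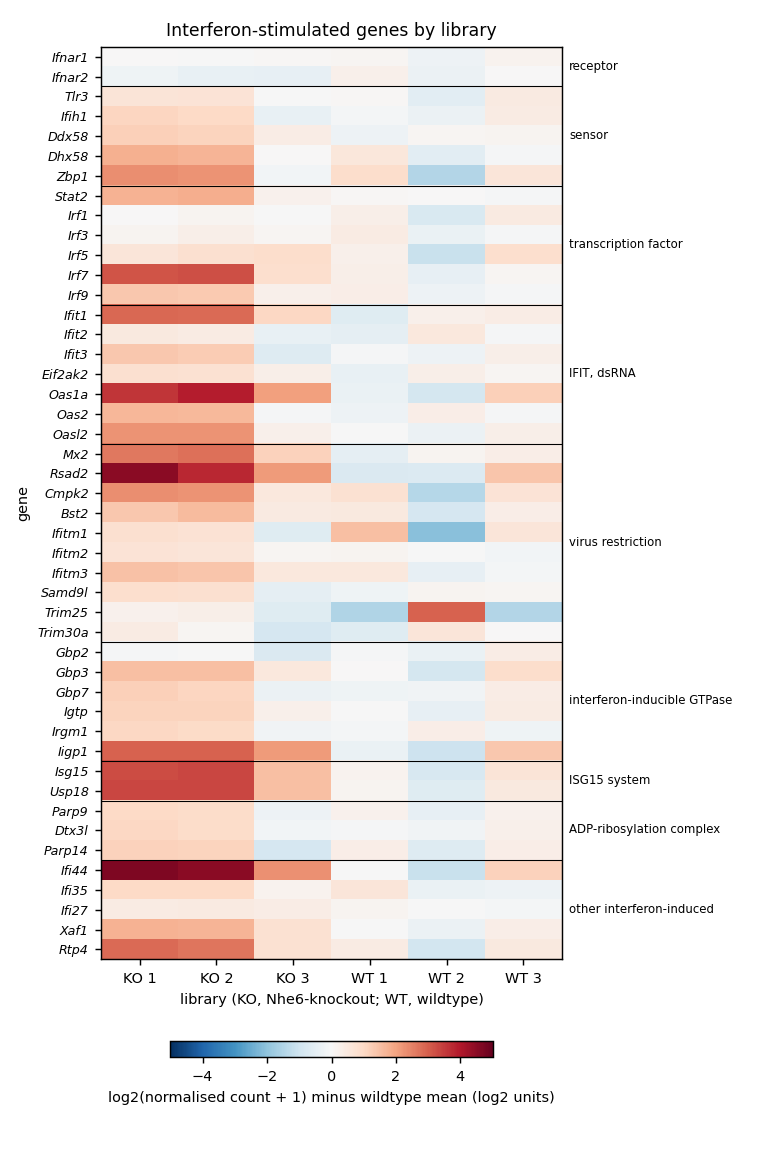
Log2 of the normalised count plus 1, minus the mean of the wildtype libraries (colour, log2 units, blue below and red above 0), for the 46 tested interferon-stimulated genes (rows, grouped by role) in each library (columns; KO, *Nhe6*-knockout; WT, wildtype). KO 1 and KO 2 are red for most genes but near white for the receptor subunits, *Irf1*, *Irf3* and *Gbp2*, and *Trim25* is darkest in WT 2.

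All 7 genes for IFIT proteins and effectors that act on double-stranded RNA had a log2 fold change above 0, with a median of 1.28. *Ifit1* (chromosome 19, 34640871 to 34650009), whose product binds viral RNA lacking a host-type cap, had 4430, 4216 and 1227 normalised counts in the knockout libraries and 389, 709 and 771 in wildtype. The genotypes did not overlap, at means of 3291 ± 1790 and 623 ± 205 and a log2 fold change of 2.40 (SE 0.53, edgeR adjusted p = 0.145, DESeq2 adjusted p = 1.89e-04). Its neighbours on chromosome 19 differed from it in knockout replicate 3. *Ifit3* had 2290, 2194 and 582 against 879, 764 and 1122, and *Ifit2* had 729, 700.4 and 408 against 378, 759 and 497. In *Ifit2* the knockout and wildtype ranges thus nearly coincided, with a log2 fold change of 0.17. Reads placed at several sites were not counted, so the split of reads within the IFIT family is uncertain.

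*Oas1a*, for an enzyme that makes the activator of the RNA-degrading RNase L, was the effector with the fewest counts. It had 43.5, 54.8 and 14.2 normalised counts in the knockout libraries and 1.96, 1.03 and 7.49 in wildtype, with no overlap. The wildtype values rest on 2, 1 and 7 reads, so the log2 fold change of 3.39 (SE 0.85, edgeR adjusted p = 0.192) depends on few reads. *Oasl2*, of the same family, had 2585, 2587 and 651 against 542, 448 and 667, so that only knockout replicate 3 fell inside the wildtype range (1.81, SE 0.52, DESeq2 adjusted p = 0.0120). *Oas2* had 80.7, 79.0 and 23.7 against 20.5, 30.9 and 23.5. *Eif2ak2*, for the kinase PKR that stops translation, had 3372, 3367 and 2406 against 1508, 2408 and 2073, with knockout replicate 3 just under the highest wildtype library (0.61, SE 0.22).

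Among the virus restriction genes, 7 of 10 tested had a log2 fold change above 0, with a median of 0.79. *Rsad2* (chromosome 12, 26442746 to 26456452), which encodes viperin, had 73.3, 43.7 and 13.2 normalised counts in the knockout libraries and 0.978, 1.03 and 7.49 in wildtype. The genotypes did not overlap, and the log2 fold change of 3.74 (SE 0.99, edgeR adjusted p = 0.215) rests on 1, 1 and 7 wildtype reads. Its neighbour *Cmpk2*, for a mitochondrial nucleotide kinase, had 458, 440 and 132 against 155, 33.0 and 148. There knockout replicate 3 was inside the wildtype range. *Mx2* (chromosome 16, 97535308 to 97560900), for a dynamin-like GTPase, had 172, 187 and 61.5 against 19.6, 29.9 and 34.2, with no overlap (2.32, SE 0.51, edgeR adjusted p = 0.142). *Mx1* had 26, 34 and 1 reads in the knockout libraries and 3, 3 and 4 in wildtype, too few to pass the filter with all 6 libraries.

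The IFITM genes, whose products hinder the fusion of virus with the endosomal membrane, had the highest levels of the list per length. Their wildtype means were 9783 (*Ifitm2*), 9767 (*Ifitm3*) and 4713 (*Ifitm1*) normalised counts per kb of exon, ahead of *Ifi27* at 1397. *Ifitm3* (chromosome 7, 141009586 to 141010770) had 17411, 16601 and 9289 normalised counts in the knockout libraries and 9110, 4745 and 6011 in wildtype, with knockout replicate 3 close to wildtype replicate 1 (1.12, SE 0.34, edgeR adjusted p = 0.270). *Ifitm2* had 10171, 9811 and 6924 against 7085, 6357 and 5782, with overlap (0.49, SE 0.19). Of these 3, *Ifitm1* varied most among the wildtype libraries, at 9621, 786 and 5061, and the knockout values of 5926, 5618 and 2229 fell inside that range. The 3 sequences are similar, so their counts are uncertain.

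*Bst2*, for tetherin, which holds budding virions at the cell surface, had 1017, 1195 and 552 against 565, 223 and 506. Knockout replicate 3 was just below wildtype replicate 1 (1.09, SE 0.43). *Samd9l* had a log2 fold change of 0.49, with knockout replicate 3 below every wildtype library. *Trim25*, for a ubiquitin ligase in the RIG-I pathway, had 413, 438 and 234 in the knockout libraries and 125, 2713 and 128 in wildtype. Wildtype replicate 2 alone set its log2 fold change of -1.45, which was 1.51 without that library (edgeR adjusted p = 0.0695). *Trim30a* had 877, 707 and 369 against 431, 1005 and 665, with wildtype replicate 2 again the highest.

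**Figure D4:**
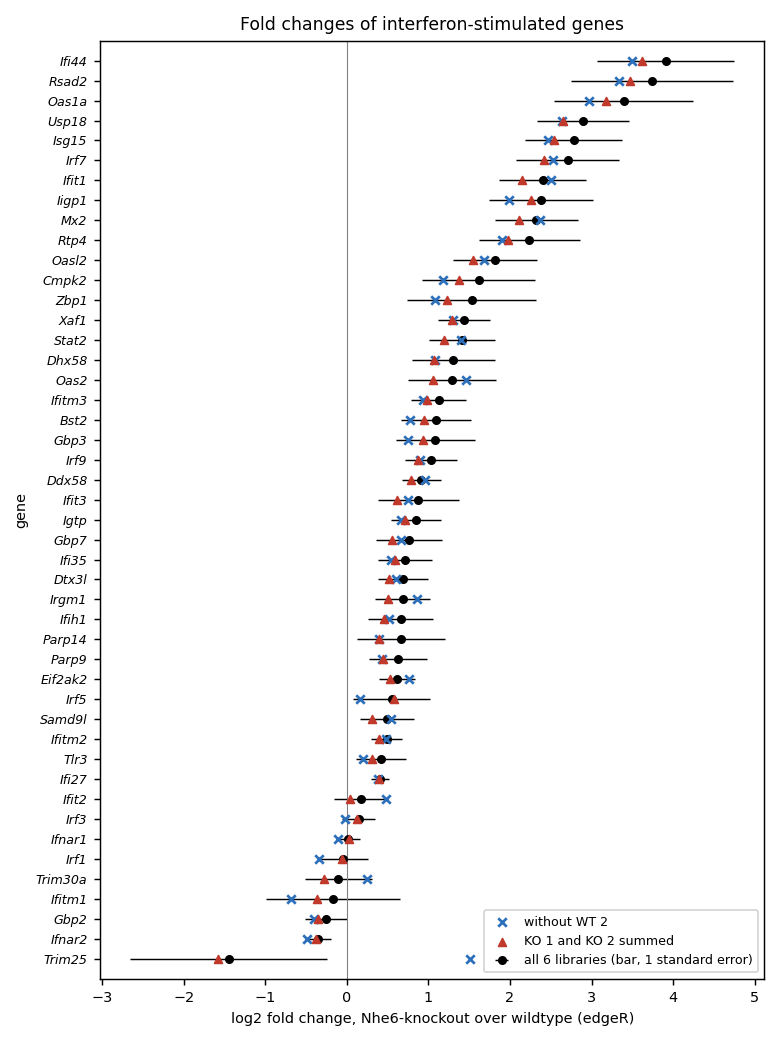
Log2 fold changes of *Nhe6*-knockout over wildtype (horizontal axis, edgeR) for the 46 tested interferon-stimulated genes (rows), with all 6 libraries (black, bars of 1 standard error), without wildtype replicate 2 (blue crosses) and with knockout replicates 1 and 2 summed (red triangles). Points run from -1.45 for *Trim25* to 3.91 for *Ifi44*, and *Trim25* moves to 1.51 without wildtype replicate 2.

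The interferon-inducible GTPases, which act on the membranes around intracellular pathogens, had a median log2 fold change of 0.81, with 5 of 6 above 0. *Iigp1* was the one of these without overlap, at 4149, 4125 and 2329 normalised counts in the knockout libraries and 425, 258 and 1351 in wildtype. Its means were 3534 ± 1044 and 678 ± 589, and knockout replicate 3 was 3.43 times the wildtype mean (log2 fold change 2.38, SE 0.64, edgeR adjusted p = 0.222, DESeq2 adjusted p = 0.00247). *Irgm1*, the GTPase with the most counts, had 8360, 8019 and 3632 against 3843, 5135 and 3493, with knockout replicate 3 inside the wildtype range. *Igtp*, with the fewest, had 1059, 1070 and 589 against 479, 372 and 659 (0.85, SE 0.31). The guanylate-binding proteins differed among themselves, at log2 fold changes of 1.08 for *Gbp3*, 0.77 for *Gbp7* and -0.25 for *Gbp2*. Reads shared within these families were not counted.

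The 3 genes of the ADP-ribosylation complex lie together on chromosome 16 and had log2 fold changes of 0.62 to 0.69. *Parp9*, with the most counts, had 2889, 2756 and 1223 against 1689, 1085 and 1688. *Dtx3l*, for its partner ubiquitin ligase, had 2395, 2165 and 1065 against 1104, 1024 and 1366. *Parp14* had 2506, 2413 and 631 against 1398, 714 and 1403. In each, knockout replicates 1 and 2 were the highest libraries and knockout replicate 3 was inside the wildtype range or, for *Parp14*, below it. *Parp9* and *Dtx3l* overlap on opposite strands.

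Of the other 5 interferon-induced genes, 4 had no overlap. *Ifi44* (chromosome 3, 151730922 to 151749960) had the largest log2 fold change of the 46, with 628, 564 and 119 normalised counts in the knockout libraries and 23.5, 10.3 and 53.5 in wildtype. Knockout replicate 3 was 4.10 times the wildtype mean, and the log2 fold change was 3.91 (SE 0.84, edgeR adjusted p = 0.138, DESeq2 adjusted p = 1.91e-05). *Rtp4* (chromosome 16, 23520291 to 23614222), for a chaperone of membrane receptors, had 1513, 1351 and 359 against 279.6, 111 and 292 (2.24, SE 0.62). *Xaf1* (chromosome 11, 72301629 to 72313733), which binds the apoptosis inhibitor XIAP, had 714, 702 and 365 against 212, 176 and 269.5, with knockout replicate 3 above every wildtype library (1.44, SE 0.32, edgeR adjusted p = 0.142). *Ifi27* (chromosome 12, 103434211 to 103440239), for a mitochondrial protein, was the gene without overlap in which the 3 knockout libraries were alike. It had 2729, 2759 and 2654 (2714 ± 54.1) against 2239, 2003 and 1907 (2050 ± 171), a log2 fold change of 0.40 (SE 0.11, edgeR adjusted p = 0.225, DESeq2 adjusted p = 0.0456). *Ifi35* had 1808, 1777 and 1018 against 1349, 709.6 and 752, with overlap.

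The rest of the pathway was described with 121 further genes, of which 118 were in the table and 97 were tested. Interferon transcripts were at or near 0. Of 12 interferon genes, *Ifnb1*, *Ifna1*, *Ifna2*, *Ifna4*, *Ifna5*, *Ifnk*, *Ifne*, *Ifng*, *Ifnl2* and *Ifnl3* had 0 reads in every library, which allows up to 3 reads per library at this depth. *Ifnab* had 1 read, in knockout replicate 3, and *Ifnz* had 6, 4 and 8 reads in the knockout libraries and 2, 3 and 1 in wildtype. Intervals of this kind cover counting error only.

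Of the receptor chains, *Ifngr1*, for the ligand-binding chain of the interferon gamma receptor, was lower in every knockout than in every wildtype library, at 1545, 1459 and 1319 against 1869, 2096 and 1724 (-0.40, edgeR adjusted p = 0.299). *Jak1* (-0.03), *Jak2* (-0.38), *Tyk2* (0.18), *Ifngr2* (-0.02), *Ifnlr1* (-0.63) and *Il10rb* (-0.21) had unadjusted p-values above 0.05 in edgeR. Of the 8 genes tested in this role group, 2 were higher in every knockout than in every wildtype library, against 10.3% of all genes tested. They were *Tyk2* and a gene not reported here. Only *Ifngr1* was lower in this way, against 9.57% of all genes.

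Across the 97 genes, edgeR called 0 at an adjusted p under 0.05. At an unadjusted p under 0.05, 15 were higher (15.5%, against 6.14% of all genes tested) and 1, *Ifngr1*, was lower (1.03%, against 5.71%). The median log2 fold change was 0.24. DESeq2 called 6 of 96 higher (6.25%, against 2.85% of all genes), among them *Oas1b*, *Slfn5*, *Slfn9*, *Epsti1* and *Nlrc5*, and with knockout replicates 1 and 2 summed it called *Slfn9* alone, 1.03% of the 97 against 1.49% of all genes. *Slfn9*, of the Schlafen family, had 465, 438 and 183 against 20.5, 74.3 and 52.4, with no overlap (2.88, SE 0.58, edgeR adjusted p = 0.117). *Nlrc5*, the transactivator of MHC class I genes, had 311, 326 and 147 against 97.8, 27.8 and 75.9 (1.96, SE 0.54). *Tmem173* (0.89) and *Mb21d1* (0.66), for the DNA-sensing proteins STING and cGAS, and *Myd88* (0.39) were among the 15. So were *Gbp6*, *Irgm2*, *Trim12c*, *Helz2*, *Mov10* and *Lgals3bp*.

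Other marker lists were summed beside these genes. Cell cycle genes also stood highest in knockout replicates 1 and 2, at 13564, 13513 and 7509 summed normalised counts in the knockout libraries and 3044, 3547 and 2299 in wildtype. Here, unlike for most interferon-stimulated genes, knockout replicate 3 was well above every wildtype library. Macrophage genes summed to 3575, 3949 and 1509 against 3717, 95.9 and 1942, so wildtype replicate 2 had the least and wildtype replicate 1 about as much as knockout replicates 1 and 2. Lymphocyte and plasmacytoid dendritic cell genes summed to at most 6.84, with 6 of 11 (*Cd3e*, *Cd3d*, *Ms4a1*, *Nkg7*, *Ncr1* and *Siglech*) at 0 in every library. Endothelial genes summed to 16672 to 25747 in the knockout and 15844 to 23458 in the wildtype libraries, and fibroblast genes to 238621 to 275636 and 183817 to 320843. At an adjusted p under 0.05, edgeR called 1 of the 9 endothelial genes tested and 0 of the other lists. Of all genes tested, it called 0.0297% higher and 0.0371% lower. The part of cell cycle and macrophage transcripts in the interferon values was not tested, and in these bulk libraries more cells carrying a transcript and more of it per cell cannot be told apart.

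**Figure D5:**
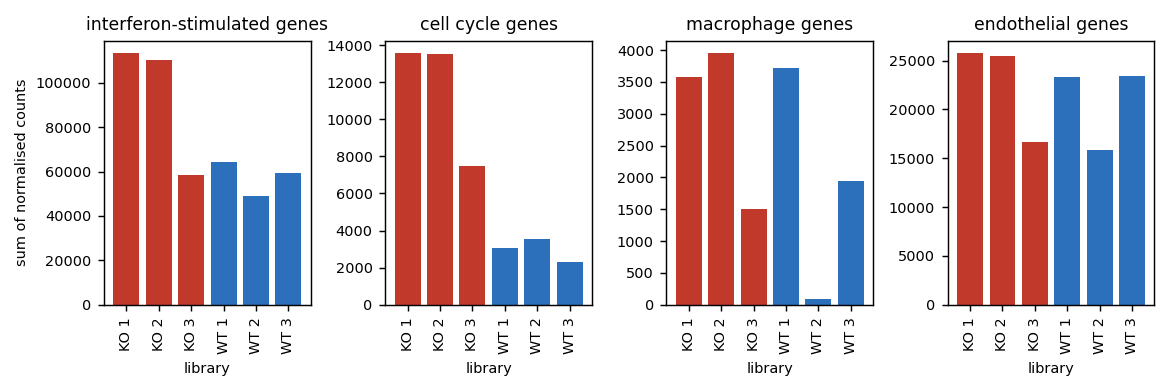
Summed normalised counts (vertical axes, each from 0) of the 47 interferon-stimulated genes and of cell cycle, macrophage and endothelial marker genes in each library (horizontal axes; KO, *Nhe6*-knockout, red; WT, wildtype, blue). The interferon-stimulated sum is 113328 and 110275 in KO 1 and KO 2 and at most 64505 in the other 4 libraries, the cell cycle sum is also highest in KO 1 and KO 2, and the macrophage sum of WT 2 is 95.9.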

How the data were processed

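The authors deposited raw counts of uniquely placed reads per gene symbol for 6 stranded poly(A) libraries. Per the submitters' processing notes, the tools were bcl2fastq 2.20.0.422, STAR 2.7.7a, HTSeq 0.13.5 and DESeq2 1.26.0, with mm10; their settings are not given in the sources used here. The last 5 lines of the table, with 22.2% of its reads, name no gene and were left out. Of 24421 genes, 17769 had a count, and 13479 passed filterByExpr (minimum count 10). Genotypes were compared with the two-sided quasi-likelihood test of edgeR 4.0.16 (limma 3.58.1, R 4.3.3) on TMM-scaled counts (factors 0.976 to 1.03), p-values adjusted by Benjamini-Hochberg across the genes tested, and a threshold of 0.05. DESeq2 1.42.0, limma-voom, other scalings and filters, a replicate block and leaving out each library were alternatives. The test was tried on simulated counts. Positions came from GENCODE M21 (GRCm38) and promoters from RefSeq (GRCm38.p6).

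The members and lists were chosen with earlier results of these data known. Every member, each interferon, receptor chain and kinase, and other pathway genes with an unadjusted p under 0.05 were named. Values per library were given for members with such a p or without overlap, and for the most and least abundant of each role; some others were added after their values were seen. Some genes are not reported here.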

Additional observations from a re-analysis of the deposited data

How the results depend on the processing

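The count of 0 interferon-stimulated genes called in edgeR, in either direction, stood with other scaling factors, other filters, limma-voom, the replicate block and without any 1 library. It became 16 higher with DESeq2, and 5 with DESeq2 and knockout replicates 1 and 2 summed, while the other pathway genes called higher went from 0 to 6 and 1. The median log2 fold change ranged from 0.67 to 1.12 when 1 library was left out, over the 46 or 47 genes that then passed the filter. Over all genes tested, 9 were called in edgeR, 627 with DESeq2, 321 with DESeq2 and the sum, 1 with the sum in edgeR, 21 with either other filter, 2 with the block and 0 to 395 when 1 library was left out, with 395 without wildtype replicate 2.

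Same-numbered libraries deviated from their group means with correlations of 0.252, -0.132 and 0.168. With 3 libraries per genotype, these values cannot show whether same-numbered libraries were prepared together. A replicate block gave a median log2 fold change of 0.79, and 20 members with an unadjusted p under 0.05 against 22.

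Of 1032 single-gene values over 69 genes and 15 alternatives, 26 changed direction, in 10 genes, and none of these was among the 22 members with an unadjusted p under 0.05. Leaving out 1 library gave log2 fold changes of -0.11 to 0.089 for *Ifnar1*, -0.35 to 0.17 for *Irf1*, -0.018 to 0.36 for *Irf3*, -0.043 to 0.48 for *Ifit2*, -0.68 to 0.64 for *Ifitm1*, -1.98 to 1.51 for *Trim25*, -0.39 to 0.24 for *Trim30a*, -0.25 to 0.51 for *Ifngr2*, -0.999 to 0.40 for *Ifnlr1* and -0.094 to 0.065 for *Jak1*. Keeping genes with 1 count gave a log2 fold change of Ifnar1 of -0.0042. With limma-voom, the log2 fold change of Irf1 was 0.044, *Ifitm1* at 0.32 and *Ifngr2* at 0.11, and with the replicate block *Irf1* was at 0.036, *Ifitm1* at 0.17, *Trim25* at 0.10 and *Ifngr2* at 0.11. Upper-quartile factors gave 0.026 for *Ifngr2* and 0.0027 for *Jak1*. The cause of these changes was not tested. Depth limits *Oas1a*, *Rsad2* and *Mx1*, with under 10 reads in each wildtype library.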
